A study of Homo sapiens with 12 samples.

Results

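The 500 widest recurrent H3K4me3 domains of BON1 cells were taken from 19095 domains made by pooling the peak lists of 5 libraries on chromosomes 1 to 22 and X and merging peaks within 1 kb of each other. A domain was called recurrent when every one of the 5 lists had a peak in it and no list from the IgG reaction had one. Of 5054 domains with a peak in all 5 lists, 66 held an IgG peak, which left 4988 recurrent domains. The 500 with the largest span, from the first peak start to the last peak end of the pooled lists, are the members described here, and the other 4488 recurrent domains are the comparison. BON1 is a human pancreatic neuroendocrine tumor cell line. The control line (BON1/TGL/pQ) was compared with a line that overexpresses HA-Bcl-xL, a tagged anti-apoptotic protein (BON1/TGL/HA-Bcl-xL), and both were grown in medium with puromycin. CUT&RUN, in which an antibody tethers a nuclease to chromatin and the released DNA is sequenced, was run on 500000 cells per condition, and the H3K4me3 lists used were those numbered 1 to 3 of the control and 2 and 3 of the HA-Bcl-xL line. The H3K4me3 list of HA-Bcl-xL replicate 1 was not used here. Values of the 5 libraries are given in that order, control 1 to 3 and then HA-Bcl-xL 2 and 3. The labels give numbered replicates and do not say that these came from separate cultures, so p-values measure the spread between these libraries, which may be technical.

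H3K4me3 is the trimethylated form of lysine 4 on histone H3. It is deposited by the SET1 and MLL complexes at the starts of transcribed genes, and these complexes are drawn to unmethylated CpG islands through CXXC-domain proteins. In many tissues the broadest stretches of the mark lie over genes that define the cell's identity and over genes with steady, high transcription.

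The H3K4me3 lists held 17687, 12138 and 10237 peaks (control) and 16363 and 15478 peaks (HA-Bcl-xL), and they carry no read totals, so sequencing depth is unknown. The IgG lists held 1665 to 2106 peaks in control and 239 to 262 in HA-Bcl-xL cells. Of 15 neuroendocrine markers, 4 had an H3K4me3 peak within 1 kb of a start in all 5 libraries (CHGB, SCG2, SCG3 and NEUROD1), and 5 had none in any, among them INSM1, ISL1 and DDC. None of 9 markers of other cell types, among them PTPRC, ALB and INS, had a peak.

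Sequences of 4 members are printed to show what lies under and between the peaks of such a domain. They come from members with a single canonical protein-coding start, no lncRNA start, and non-exonic stretches of all 3 kinds. The first lies under a peak in all 5 libraries just before the 5′ end. Another such shared stretch lies at least 300 bp into the gene, and one under no peak in any library lies between them. At most 150 bp of a stretch is printed, so longer ones are shown in part. Members were taken in order of span, and those printed have ranks 6, 205, 276 and 346. Further limits on length and place applied, so wider members with such stretches may have been passed over. The genes are KIF11 (a mitotic kinesin), NOP58 (a core protein of box C/D snoRNPs), MARK3 (a microtubule-affinity-regulating kinase) and TIA1 (an RNA-binding protein of stress granules). Sequences are from GRCh37, 5′ to 3′ on the gene's strand, and capitals mark CpG dinucleotides.
KIF11 shared stretch before the 5′ end, chr10:94352736-94352857, plus strand: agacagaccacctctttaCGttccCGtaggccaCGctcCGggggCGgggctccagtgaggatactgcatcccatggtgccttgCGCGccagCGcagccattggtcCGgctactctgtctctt
KIF11 uncovered stretch after it, chr10:94353210-94353251, plus strand: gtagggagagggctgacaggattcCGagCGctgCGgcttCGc
KIF11 shared stretch downstream, chr10:94353497-94353646, plus strand: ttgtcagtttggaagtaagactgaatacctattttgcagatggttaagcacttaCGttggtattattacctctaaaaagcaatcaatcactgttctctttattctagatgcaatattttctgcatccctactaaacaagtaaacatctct
NOP58 shared stretch before the 5′ end, chr2:203130352-203130458, plus strand: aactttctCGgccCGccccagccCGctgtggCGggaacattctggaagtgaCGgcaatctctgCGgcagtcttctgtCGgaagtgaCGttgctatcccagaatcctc
NOP58 uncovered stretch after it, chr2:203130771-203130827, plus strand: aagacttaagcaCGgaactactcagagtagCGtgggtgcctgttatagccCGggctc
NOP58 shared stretch downstream, chr2:203130864-203130923, plus strand: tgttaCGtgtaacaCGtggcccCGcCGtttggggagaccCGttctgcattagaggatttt
MARK3 shared stretch before the 5′ end, chr14:103851659-103851713, plus strand: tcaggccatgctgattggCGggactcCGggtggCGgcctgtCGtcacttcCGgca
MARK3 uncovered stretch after it, chr14:103852422-103852571, plus strand: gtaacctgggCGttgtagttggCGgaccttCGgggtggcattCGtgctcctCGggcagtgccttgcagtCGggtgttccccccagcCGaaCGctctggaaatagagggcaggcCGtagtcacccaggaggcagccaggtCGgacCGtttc
MARK3 shared stretch downstream, chr14:103852726-103852812, plus strand: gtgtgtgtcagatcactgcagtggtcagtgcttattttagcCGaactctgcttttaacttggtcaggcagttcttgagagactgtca
TIA1 shared stretch before the 5′ end, chr2:70475793-70475864, minus strand: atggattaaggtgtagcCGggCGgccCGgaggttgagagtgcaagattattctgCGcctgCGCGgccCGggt
TIA1 uncovered stretch after it, chr2:70475413-70475536, minus strand: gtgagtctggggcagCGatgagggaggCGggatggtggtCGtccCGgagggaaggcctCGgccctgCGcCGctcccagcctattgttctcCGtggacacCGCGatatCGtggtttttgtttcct
TIA1 shared stretch downstream, chr2:70474854-70475003, minus strand: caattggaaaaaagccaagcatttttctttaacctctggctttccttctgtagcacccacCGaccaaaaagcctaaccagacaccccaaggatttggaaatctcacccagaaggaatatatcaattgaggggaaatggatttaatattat
At KIF11 the stretch from 151 to 30 bp before the 5′ end had a GC content of 63.1% with 9 CpGs in 122 bp. The 42 bp uncovered stretch from 323 bp into the gene had 66.7% GC, and the shared stretch from 610 to 759 bp had 33.3% GC and a single CpG in 150 bp. The downstream stretch was also the poorest in GC at MARK3, with 67.3% before the 5′ end, 64.0% in the uncovered stretch and 46.0% downstream. At TIA1 the first 2 stretches had 62.5 and 63.7% GC, and the downstream stretch held 1 CpG in 150 bp. At NOP58 the 3 stretches differed less and lay between 53.3 and 58.9% GC.

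Width came mostly from several separate peaks lying near each other. The members spanned 1617 to 3377 bp with a median of 1918.5 bp, against 787 bp for the other recurrent domains. This is the property they were chosen by, and it is given with no test. A member held a median of 12 pooled peaks (6 to 24) that formed a median of 4 separate blocks (2 to 8), and its longest stretch under no peak in any library had a median of 662.5 bp. Across members a median of 58.6% of the span lay under no peak in any of the 5 libraries (3.91 to 81.4%), and 368 of 500 members were uncovered over at least 50% of their length. The span is set by the outermost peaks of any library, and these often did not recur. At 283 members (56.6%) at least 1 of the outermost blocks came from 1 library only, and at 116 (23.2%) both held peaks of at least 3 libraries. The distance from the first to the last block with peaks of at least 3 libraries had a median of 1281.5 bp in the members and 416.5 bp in the other recurrent domains. This count of libraries was chosen after seeing the data, and the span is thus neither the length of an unbroken block of signal nor, at most members, of a stretch bounded by shared peaks. The last 2 members, at SPRTN (a DNA repair protease) and EBAG9, spanned 1617 bp. Just outside lay ZNF770, also with 1617 bp and placed after them by position, and USP54 with 1616 bp.

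The widest member, chr5:43039640-43043016, spanned 3377 bp at ANXA2R, which encodes a receptor for annexin A2. Its peaks covered 705, 534 and 300 bp in control against 626 and 398 bp in HA-Bcl-xL cells. Control replicate 1 was highest, control replicate 3 lowest, and the lines overlapped. The next, at HEXIM1, an inhibitor of the transcription elongation factor P-TEFb, spanned 3309 bp (chr17:43224640-43227948) and was covered over 456, 375 and 320 bp in control against 536 and 443 bp in HA-Bcl-xL cells. At HEXIM1 an internal peak recurred at nearly the same place in all 5 libraries. Each library also had a distal peak, but no base of the distal stretch lay under a peak of all 5, and again the lines overlapped. The third, chr1:151031226-151034471, held the divergent starts of CDC42SE1 and MLLT11 and was uneven, with 1370, 563 and 199 bp in control against 498 and 534 bp in HA-Bcl-xL cells. ARHGAP11A followed with 558, 254 and 108 bp in control against 883 and 422 bp in HA-Bcl-xL cells. RCC1, the nucleotide exchange factor of Ran, shares its 3143 bp domain with the start of the snoRNA host gene SNHG3, where peaks covered 625, 778 and 596 bp in control against 315 and 669 bp in HA-Bcl-xL cells.

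KIF11 stood sixth in span (3093 bp, chr10:94351590-94354682) and had more bases under a peak of every library than any other member, 618 bp. Its coverage was 934, 992 and 632 bp in control against 917 and 1015 bp in HA-Bcl-xL cells, and only control replicate 3 was clearly lower. ID1, an inhibitor of helix-loop-helix transcription factors, had 524, 515 and 288 bp in control against 354 and 490 bp in HA-Bcl-xL cells over 3062 bp. The member ranked 8 held no protein-coding start: it lay at the lncRNA gene ENSG00000251131 with 760, 698 and 327 bp in control against 858 and 570 bp in HA-Bcl-xL cells. That member, ANXA2R and the domain of ZNF131 (rank 40) lay together within chr5:43017415-43067527. The members ranked 9 to 20 were at LRR1 and RPS29, BBIP1 and SHOC2, the histone genes H3C7 and H2BC9, SON and GART, LANCL2, GOLPH3, BTBD3, ACSL3, DCAF6 and MPC2, CAPZA1 and ST7L, NIPBL (the cohesin loader), and NOA1 and POLR2B (an RNA polymerase II subunit), with spans of 3015 down to 2669 bp.

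**Figure D1:**
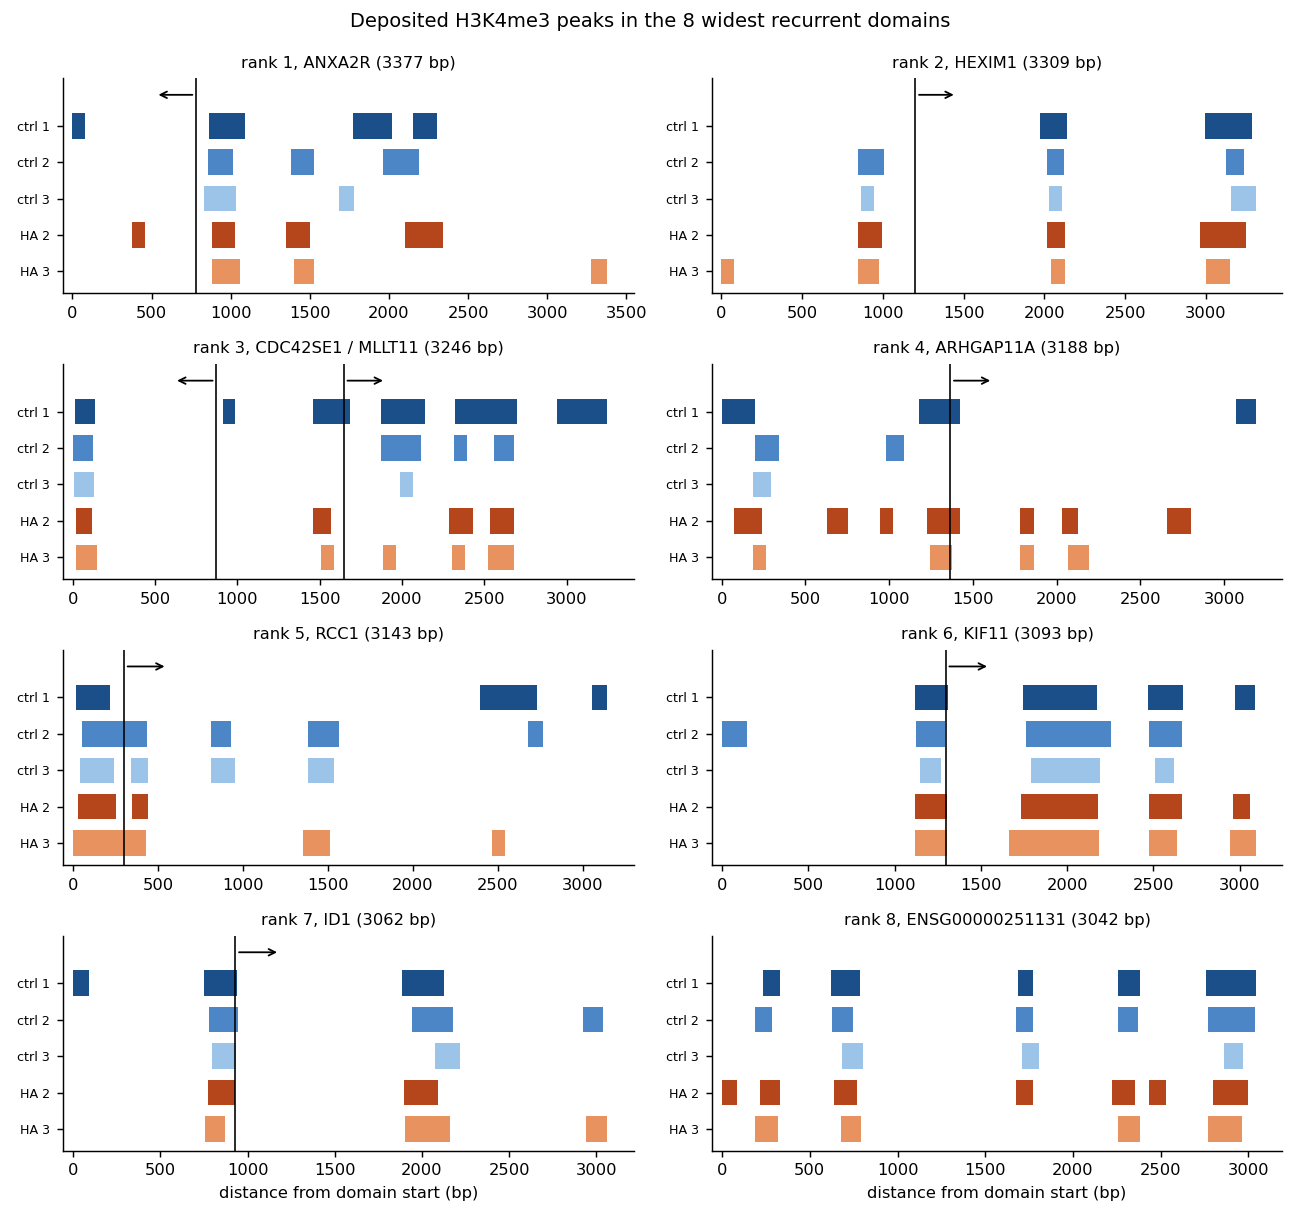
Deposited H3K4me3 peaks in the 8 widest members by library (rows; blue, control replicates 1 to 3; orange, HA-Bcl-xL replicates 2 and 3), against distance from the domain start in bp. Vertical lines and arrows mark canonical protein-coding 5′ ends and their direction. KIF11 shows 3 peak clusters found in all 5 libraries, while ARHGAP11A has 1 peak in control replicate 3 and 7 in HA-Bcl-xL replicate 2.

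Presence by library was complete by the rule, but the amount covered was not even. The median bases under peaks per member were 550.5, 353 and 256 (control) and 420 and 363.5 (HA-Bcl-xL), the same order as the length of the lists. The library's own first-to-last-peak extent had medians of 1653, 1111 and 704.5 bp (control) and 1477 and 1256 bp (HA-Bcl-xL). A single library reached at least 80% of the pooled span at 293, 151 and 77 members (control) and at 219 and 169 (HA-Bcl-xL). It had only 1 peak at 26, 116 and 188 members (control) and at 52 and 83 (HA-Bcl-xL). In control replicate 3, the shortest list, width was thus seen least often. Base by base, 57.3% of the members' bases lay under no peak, 16.0% under a peak of 1 library and 5.83% under a peak of all 5. In the other recurrent domains 12.6% lay under a peak of all 5. At 370 of 500 members (74%) at least 1 base was shared by all 5 libraries, against 80.6% of the others. Evenness over libraries varied widely between members. NOA1 and POLR2B had 460, 449 and 432 bp in control against 393 and 418 bp in HA-Bcl-xL cells, the lowest coefficient of variation (0.0612). RPRD2 and HNRNPC followed at 0.0696 and 0.0826. TTC13 and ARV1 had 835, 122 and 113 bp in control against 350 and 118 bp in HA-Bcl-xL cells, the highest (1.01), ahead of PHLDA1-AS1 (0.982) and FERMT2 (0.936).

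Because every library helped to choose the members, presence was also counted in a library left out of the choice. The 500 widest domains of the other 4 libraries had a peak in the library left out in 100, 96.4 and 90.4% of cases (control) and in 98.6 and 98.2% (HA-Bcl-xL). The remaining domains with a peak in all of the other 4 had one in 98.1, 89.5, 80.6, 96.2 and 94.1%. The wide domains were ahead in 5 of 5 libraries, by 5.02 percentage points on average (1.89 to 9.85). An exact two-sided sign-flip permutation test over the 5 libraries gave p = 0.0625, the smallest it can give, so the difference cannot pass 0.05. The 5 comparisons also share most of the libraries that chose the domains, so they are not independent as the test assumes. The wide domains are also longer windows, with median spans of 1784.5 to 1911 bp against 687.5 to 743 bp, and the part of length in this difference was not tested. The library left out covered a median of 360.5 bp of a wide domain and 199.4 bp of the others, as means over the 5 libraries. As a share of the span it covered 20.3% of the wide domains against 38.1% of the others, given as a description, since the share divides by the span that ranked them.

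Most members lay at protein-coding gene starts, often at more than 1. Of 500 members, 414 (82.8%) had the most 5′ annotated end of a protein-coding gene inside or within 1 kb, against 73.5% of the other recurrent domains. By the canonical transcript it was 447 (89.4%) against 82.7%, and by any annotated transcript 477 (95.4%) against 89.8%. Members are wider windows with more room for a start, and the part of width in these differences was not tested. In all 645 protein-coding genes had a transcript start at a member. A further 17 members had only a lncRNA start, and 6 (1.2%) had no annotated start, against 5.04% of the others, which are shorter. The 5 widest without any start lay at chr6:116378899-116380983, chr5:114877507-114879383, chr3:197380070-197381901, chr11:118799304-118801121 and chr19:51306842-51308641. Of these the one on chromosome 3 had 999, 429 and 494 bp in control against 621 and 644 bp in HA-Bcl-xL cells.

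Divergent gene pairs were common among the widest domains. By canonical starts, 112 members (22.4%) held a divergent pair, against 9.71% of the other recurrent domains (by most 5′ ends 79, or 15.8%, against 7.73%), and 128 (25.6%) held at least 2 starts, against 10.6%. A wider window has more room for several starts, and the part of width in these shares was not tested. The pairs' starts lay a median of 378 bp apart, and 60 of the 112 domains (53.6%) reached at least 500 bp past both starts, a reach that the choice by span favours. The pairs' domains had a median span of 1966 bp, with or without a lncRNA start. Members with a single canonical start and no lncRNA start had 1884 bp, so the sets are not chosen alike. Examples are SHOC2 with BBIP1, the former a scaffold of RAS signalling, with 719, 558 and 163 bp in control against 489 and 621 bp in HA-Bcl-xL cells, and SON with GART, a splicing cofactor and a purine synthesis enzyme, with 581, 98 and 187 bp in control against 308 and 335 bp in HA-Bcl-xL cells. Control replicate 3 was lowest at SHOC2 and control replicate 2 at SON. The densest member, on chromosome 1, held the starts of the histone genes H2BC21, H2AC20 and H2AC21 and of BOLA1. By most 5′ ends 7 members held at least 3 protein-coding starts, and by canonical starts 5.

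At single-gene members the domain ran mostly into the gene, as it did at the other recurrent domains. Among 196 members with a single canonical protein-coding start and no lncRNA start, the domain reached a median of 410 bp upstream and 1468 bp downstream of the 5′ end, and farther downstream in 171 (87.2%), against 74.7% of 2381 other single-gene domains. The canonical transcript was chosen for this after the data were seen. By each gene's most 5′ end the share was 140 of 161 (87.0%) against 78.4%. That wide domains reach farther follows from the rule. The side was not part of the rule, but a short domain with a peak only before the 5′ end does not count as reaching farther downstream. The shares can thus depend on span, and the part of span in them was not tested. Coverage had a sharp maximum over the last 100 bp before the 5′ end, where 41.1, 34.4 and 25.9% of bases lay under a peak (control) or 39.6 and 35.6% (HA-Bcl-xL). It then fell to 5.90, 3.16 and 3.81% (control) and 4.67 and 3.38% (HA-Bcl-xL) between 100 and 200 bp into the gene. A broad maximum followed between 600 and 1000 bp, with 33.2, 21.1 and 16.9% (control) and 25.7 and 22.9% (HA-Bcl-xL). All 5 libraries showed this order of high, low and high. From 500 to 1500 bp downstream 13.8 to 27.6% of bases were covered, and over the same distance upstream 1.77 to 4.06%. The downstream share was 6.24 to 7.80 times the upstream share in the members and 10.2 to 11.7 times in the other single-gene domains, so by this measure the members leaned less to the downstream side. The other domains reached a median of 143 bp upstream and 695 bp downstream. The ratio of the 500 to 1500 bp stretch to the last 100 bp before the 5′ end was 0.524 to 0.672 over the 5 libraries, and 0.188 to 0.251 in the other single-gene domains, which are shorter by the rule and so reach that stretch less often.

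**Figure D2:**
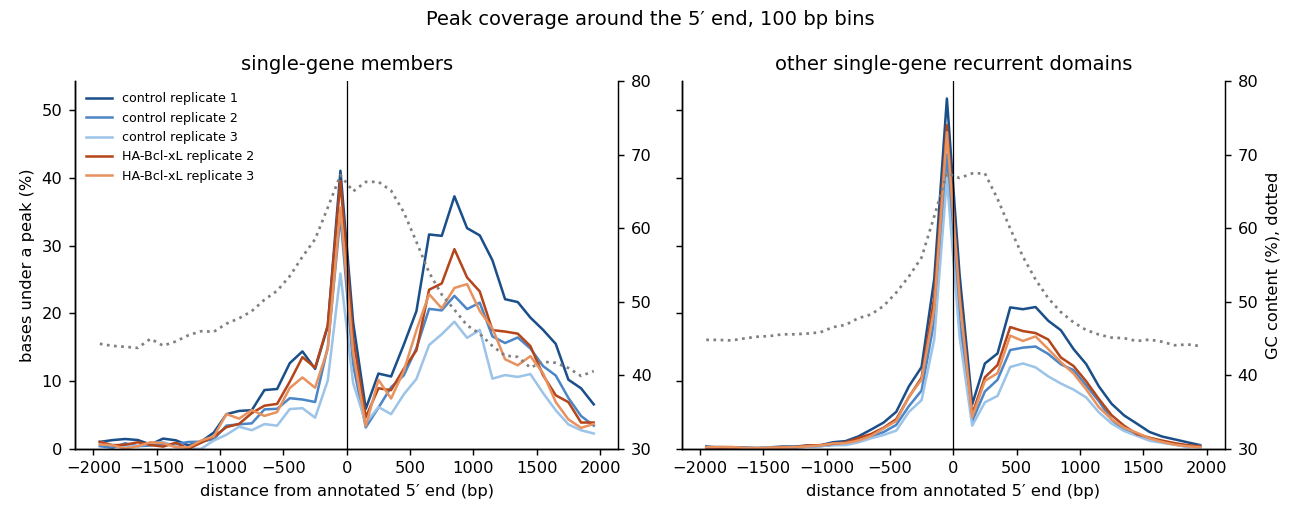
Share of bases under a deposited peak in 100 bp bins against distance from the canonical 5′ end (bp) for 196 single-gene members (left) and 2381 other single-gene recurrent domains (right), 1 line per library, with GC content dotted on the right axis. In both sets and all 5 libraries a sharp maximum before the 5′ end is followed by a minimum and a broad downstream maximum, which is higher relative to the first in the members.

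The sharp maximum and the minimum beside it both lay in GC-rich sequence, and the broad maximum in sequence poorer in GC. In the single-gene members GC content was 67.2% over the last 100 bp before the 5′ end, 66.3% from 100 to 200 bp, 50.2% from 600 to 1000 bp and 42.1% from 1000 to 2000 bp. The longest stretch under no peak lay wholly downstream of the 5′ end in 125 of the 196, had a median length of 683 bp and a median GC content of 63.8%. Over all members, bases under no peak had 57.3% GC and 64.9 CpGs per kb, and bases under a peak of all 5 libraries had 51.4% GC and 45.8 CpGs per kb. In each library the bases under its peaks had less GC than the rest of the members' bases, with 48.6, 48.6 and 48.8% against 55.6, 54.7 and 54.4% (control) and 49.5 and 50.4% against 54.7 and 54.3% (HA-Bcl-xL). The part of base composition in where peaks were called was not tested.

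**Figure D3:**
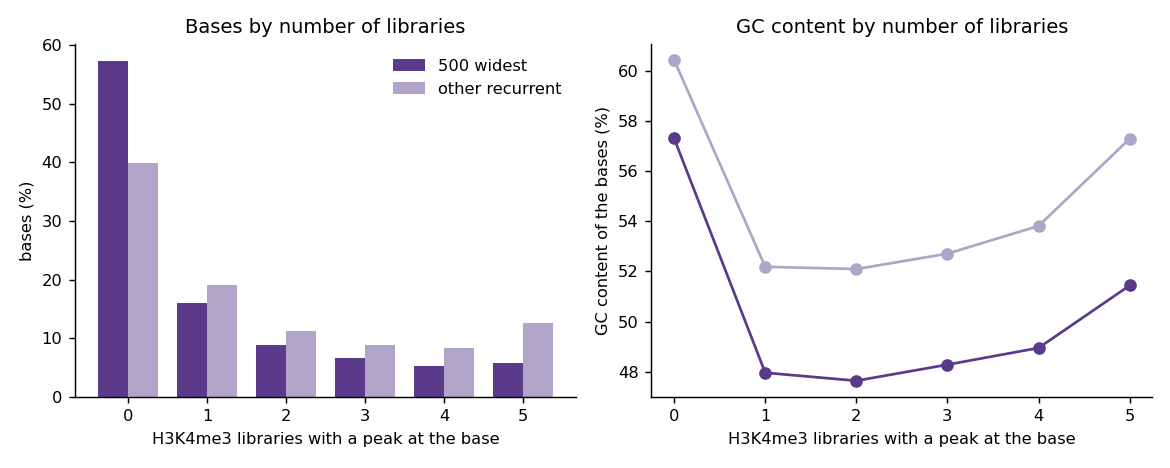
Left, bases of the 500 members and of the other recurrent domains by the number of H3K4me3 libraries with a peak there (bars, % of bases). Right, GC content (%) of the same bases; the axis does not start at 0. Bases under no peak are the largest class and have the highest GC content in both sets.

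Over the whole domain, members had a median GC content of 54.7% (28.0 to 73.0%), against 58.0% for the other recurrent domains, with 55.8 against 59.5 CpGs per kb. Both sets had nearly the same ratio of observed to expected CpG, 0.736 and 0.730. In 580 promoter windows of member genes, from 250 bp before to 50 bp after the 5′ end, the GC box GGGCGG was found in 71.6%, equal to 71.6% of 4183 windows at other recurrent domains and above 62.0% of all 19177 windows. CCAAT was found in 42.8, 42.4 and 36.0%, the ETS-type word CCGGAAG in 22.8, 26.7 and 14.0%, and TATAAA in 7.07, 4.35 and 9.62%. Both strands were searched, and a match is a description of letters and not a bound site. Members were unevenly placed: 16.3% of the recurrent domains on chromosome 5, 16.1% on chromosome 21 (5 of 31) and 15.6% on chromosome 10 were members, against 0 of 31 on chromosome X, 2.82% on chromosome 22 (2 of 71), 3.64% on chromosome 19 and 4.68% on chromosome 17, where 10.0% is the share over all chromosomes.

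A set of 44 members (8.8%), among them NTS, SCG2, PAM, SEMA3A, CACNA2D1 and DNAJC12, had under 40% GC, against 5.61% of the other recurrent domains. They were more fully covered, with a median of 43.0% of the span under no peak, against 65.9% in the 114 members of at least 60% GC. The other recurrent domains showed the same order, with 14.8% under no peak below 40% GC and 40.85% at 60% GC and over, so this is not particular to the members. The lowest GC content was at NTS (28.0%), which encodes the gut peptide neurotensin, then at B3GALT2 and CDC73 (29.0%) and at DNAJC12 (29.1%), a co-chaperone of aromatic amino acid hydroxylases. At NTS the peaks covered 779, 428 and 469 bp in control against 874 and 212 bp in HA-Bcl-xL cells, so the HA-Bcl-xL libraries held both the highest and the lowest value. At DNAJC12 they covered 1034, 646 and 578 bp in control against 710 and 639 bp in HA-Bcl-xL cells. SCG2, the granin secretogranin II, was the most covered of all 500 members: 1755, 1115 and 834 bp of its 2224 bp lay under peaks in control against 1087 and 1111 bp in HA-Bcl-xL cells. No more than 3.91% of the SCG2 domain lacked a peak in all libraries, the lowest share of any member. The next most covered was SEMA3A, a secreted axon guidance cue, with 1705, 745 and 754 bp in control against 1023 and 942 bp in HA-Bcl-xL cells. PAM, the enzyme that amidates peptide hormones, had 1190, 899 and 462 bp in control against 698 and 630 bp in HA-Bcl-xL cells. At SCG2, SEMA3A and PAM both HA-Bcl-xL libraries fell between the lowest and the highest control library. The members ranked by coverage, and SEMA3A with them, were picked after their values were seen. The shared stretches of SCG2 and DNAJC12 are printed to set beside the downstream stretches above. Both hold at most a single CpG, as do those downstream at KIF11, MARK3 and TIA1, while that at NOP58 holds 5 in 60 bp.
DNAJC12 shared stretch, chr10:69597453-69597561, minus strand: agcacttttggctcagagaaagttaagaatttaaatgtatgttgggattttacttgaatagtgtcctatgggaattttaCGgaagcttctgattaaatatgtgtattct
SCG2 shared stretch, chr2:224466079-224466228, minus strand: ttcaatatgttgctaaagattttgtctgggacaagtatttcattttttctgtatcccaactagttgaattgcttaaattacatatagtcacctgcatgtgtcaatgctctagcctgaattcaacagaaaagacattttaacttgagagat
The SCG2 stretch lies 774 to 923 bp into the gene and has 32.7% GC, and the DNAJC12 stretch lies 256 to 364 bp into its gene and has 32.1%. At the other end, the highest GC content was at TRIO (73.0%), MROH1 (73.0%) and MFSD3 (71.4%).

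Span and coverage ranked the domains in part alike. Of the 100 recurrent domains with the most bases under peaks, averaged over libraries, 61 were members, and of the first 500, 178 were. The Spearman correlation of span with mean bases under peaks was 0.59 over all recurrent domains and 0.17 over the members, whose range of spans is narrowed by the rule. Both are descriptions over domains that share the same 5 libraries. The strongest peak of a member stood at a median percentile of 82.4, 75.5 and 71.7 (control) and 81.8 and 78.5 (HA-Bcl-xL) within its own list, by the authors' −log10 p. The other recurrent domains stood at 81.8, 73.9 and 69.9 (control) and 79.5 and 78.5 (HA-Bcl-xL), so the strongest peaks ranked much alike in both sets. A member's strongest peak was taken from more peaks, with a mean of 1.93 to 3.03 per library against 1.35 to 1.75 in the other domains. The part of peak number in these ranks was not tested.

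Of all protein-coding genes at a recurrent domain, 645 of 5249 (12.3%) were at a member. Among 17 gene lists the share was highest for neuroendocrine markers (3 of 5 genes, from a list of 21 that differs from the 15 markers given first), ubiquitous reference genes (3 of 8) and histone genes, and lowest for MYC network (0 of 12), ZNF (10 of 193) and HOX genes (1 of 9). These counts describe lists chosen with earlier results known, and they carry no test. Of 35 histone genes at a recurrent domain, 13 (37.1%) were at a member, among them H2BC9, H3C7, H4C14, H2BC21, H2AC13 and H2AX. Histone genes are near-identical copies that lie close together, so reads may have been split between them and a single domain can hold several. Of 15 snoRNA host genes, 5 were at members (SNHG3, SNHG10, SNHG1, SNHG12 and SNHG5). SNHG1 had 922, 201 and 256 bp in control against 526 and 96 bp in HA-Bcl-xL cells, high in replicate 1 of control. Of 73 splicing and hnRNP genes, 17 (23.3%) were at members, among them HNRNPA0, HNRNPH1, HNRNPC, RBM39 and HNRNPF. HNRNPC, which binds nascent transcripts, was among the most even with 812, 772 and 847 bp in control against 809 and 678 bp in HA-Bcl-xL cells. HNRNPA0 had 883, 621 and 745 bp in control against 600 and 490 bp in HA-Bcl-xL cells, and both HA-Bcl-xL values were below every control value. Ribosomal protein genes had 9 of 55 at members (RPS29 and RPL13A the widest), translation initiation factors 7 of 32 (EIF5B and EIF3A the widest) and ubiquitous reference genes 3 of 8 (PPIA, SDHA and POLR2A).

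In the list of 21 neuroendocrine markers, 5 were at a recurrent domain and 3 of these at members (SCG2, PAM and SYT1). Of the 15 markers given first, 4 were at a recurrent domain and only SCG2, at rank 108 by span, was at a member. NEUROD1 stood at rank 571, SCG3 at 2176 and CHGB at 2921. SYT1, the calcium sensor of vesicle release, had 234, 98 and 79 bp in control against 220 and 274 bp in HA-Bcl-xL cells, with control replicate 1 between the HA-Bcl-xL values. Neuroendocrine and endoderm transcription factors had 3 of 13 (ID1, SIX4 and ID3). FOX and SOX genes had 2 of 11 (SOX6, at a pair of members, and FOXA3, a hepatic and pancreatic endoderm factor), and HOX genes had 1 of 9 (HOXC10). Tumor suppressor and pancreatic neuroendocrine tumor genes had 4 of 16, among them BRCA1, FBXW7 and CDKN2C. Chromatin regulators had 4 of 26 (CHD8, EED, INO80 and KDM3A), with CHD8, a chromodomain remodeler, covered over 1393, 916 and 534 bp in control against 796 and 916 bp in HA-Bcl-xL cells. Cyclins and cell cycle genes had 2 of 16 (CDK1 and CCNL1), and TGF-beta and BMP pathway genes 1 of 5 (TGFB3). At the low end, ZNF genes had 10 of 193 (5.18%), with ZNF131 and ZNF207 the widest and a median span of 628 bp. Of the MYC network, AP-1 and KLF genes none of 12 was at a member.

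Of 9 BCL2 family genes at a recurrent domain, 3 were at members: BCL2L2, MCL1 and BCL2L1. BCL2L1 encodes Bcl-xL itself, the protein that the HA-Bcl-xL line overexpresses. Its domain, rank 405 at chr20:30309122-30310826 (1705 bp), had 356, 491 and 215 bp under peaks in control against 376 and 453 bp in HA-Bcl-xL cells, and both HA-Bcl-xL libraries fell between control replicates 3 and 2. The peak lists do not separate the endogenous gene from a transgene with the same coding sequence. MCL1, an anti-apoptotic relative, had 629, 544 and 320 bp in control against 389 and 446 bp in HA-Bcl-xL cells. BCL2L2, which encodes Bcl-w, had 343, 169 and 78 bp in control against 221 and 475 bp in HA-Bcl-xL cells. In all 3 the lines overlapped.

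**Figure D4:**
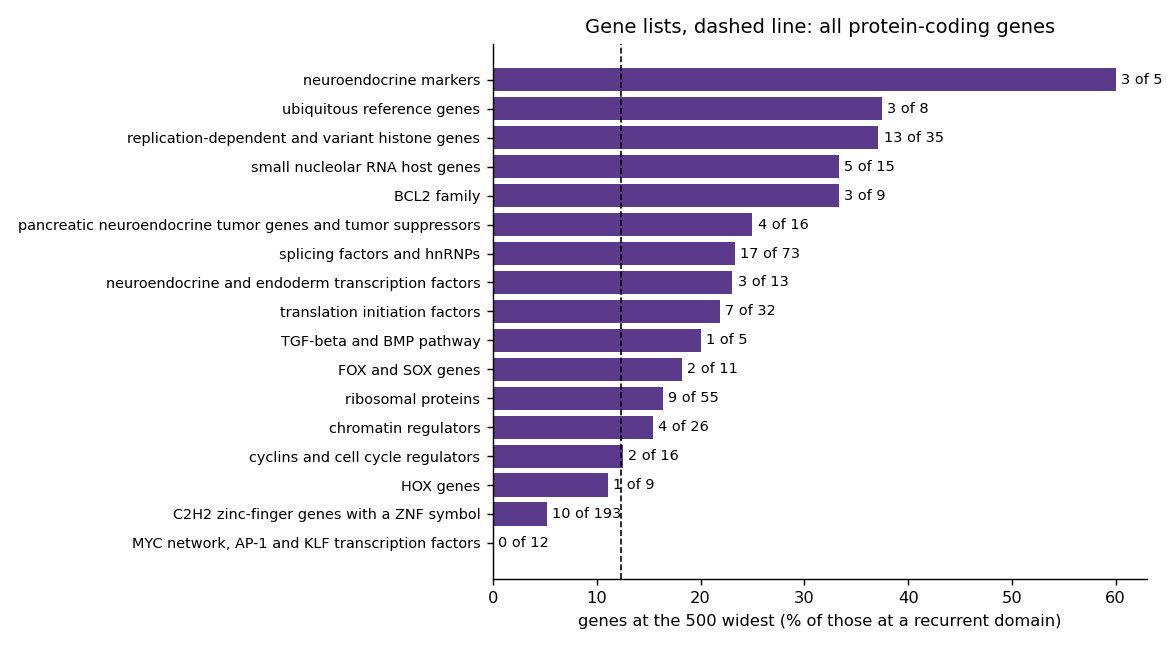
Share of each list's genes at a recurrent domain that lie at one of the 500 members (bars, %), with counts. The dashed line is the 12.3% of all protein-coding genes. Lists with few genes, such as 3 of 5 from the list of 21 neuroendocrine markers, have imprecise shares.

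No test of the members' coverage between the lines passed its threshold. Control libraries had 2.41 ± 0.563 peaks per member (SD, n = 3) and HA-Bcl-xL libraries 2.68 ± 0.18 (SD, n = 2), a difference of 0.28 with an exact two-sided permutation p of 0.6. The median covered share of the span was 19.5% ± 7.69 in control against 19.3% ± 2.02 in HA-Bcl-xL cells, a difference of -0.17 percentage points (exact permutation p = 1). The members' share of all bases under peaks in recurrent domains differed by -0.03 on the log2 scale (exact permutation p = 1). With 2 libraries against 3 such a test cannot go below 0.2. Per domain, limma on log2 bases under peaks, with each library centred on its median and Benjamini-Hochberg adjustment over 4988 domains, called 0 members and 0 domains in all (0.0%), and the smallest adjusted p of a member was 0.839. At an unadjusted limma p under 0.05 there were 27 members (5.4%), 8 higher and 19 lower in HA-Bcl-xL cells, near the 4.89% over all recurrent domains (1.94% higher, 2.95% lower). This direction turned without control replicate 1, with 19 members higher and 9 lower, and without centring 2 were higher and 1 lower. As deposited, both HA-Bcl-xL values lay above all 3 control values at 25 members (5%), where the share over all recurrent domains was 9.5%, and below them at 21 (4.2%), where it was 5.63%. In simulated data of this size every domain was given the same spread. The test then recovered 3% of domains changed by 1 on the log2 scale and 89% of those changed by 2, the latter with 14 false calls. Differences near 1 would thus mostly have been missed in such data. Spread differed between the real domains, so these rates may not carry over to them.

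The members with the smallest limma p for coverage show how wide the replicate spread was. CACNA2D1, a calcium channel auxiliary subunit, had 803, 883 and 204 bp in control against 266 and 116 bp in HA-Bcl-xL cells. Control replicate 3 lay between the HA-Bcl-xL values, so the groups overlapped. Its log2 difference was -1.69 (SE 0.521, limma adjusted p = 0.839), and it was -1.12 without control replicate 2 and -1.14 without HA-Bcl-xL replicate 3. INTS13 with FGFR1OP2 had 500, 381 and 427 bp against 279 and 132 bp, with no overlap and a log2 difference of -1.29, which was -0.80 without HA-Bcl-xL replicate 3. ABL1, a tyrosine kinase gene, had 705, 411 and 270 bp against 76 and 367 bp, and the groups overlapped. Its log2 difference of -1.47 was -0.28 without HA-Bcl-xL replicate 2 and -2.66 without replicate 3. In the other direction CAPNS1, the small calpain subunit, had 383, 83 and 112 bp in control against 487 and 403 bp in HA-Bcl-xL cells, a log2 difference of 1.42 (SE 0.479, limma adjusted p = 0.946). When peaks were merged within 500 bp the difference at CAPNS1 turned to -0.17. ZNF638 had 545, 126 and 131 bp against 589 and 610 bp, and ZNF398 with ZNF425 had 308, 145 and 104 bp against 408 and 347 bp. At CAPNS1, ZNF638 and ZNF398 the groups did not overlap, but control replicate 1 lay close to the HA-Bcl-xL values and replicates 2 and 3 far below them.

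For the extent of the peaks within a library, limma called 0 members at an adjusted p under 0.05 and 1 of 4988 domains (0.02%), MAP1B, which is no member. MAP1B was also called with IgG peaks ignored and under no other alternative. At an unadjusted p under 0.05 there were 48 members (9.6%), 15 higher and 33 lower, against 6.3% of all recurrent domains (1.7% higher, 4.59% lower). Median centring of extents placed the median domain at -0.35 on the log2 scale and no centring at 0.13, and without centring 12 members were higher and 3 lower. That is 3% of the members against 4.35% of all recurrent domains, so the higher share among the members was also lost. With centring on the mean 18 were higher and 10 lower, and without control replicate 1 the counts were 29 and 13, so their direction depends on the scale and on 1 library. Without control replicate 2, 3 of 5489 domains were called, of which 2 were among the 500 widest of the other 4 libraries and the third, at DPP8, was not. At MROH1 the extents were 1613, 86 and 1593 bp in control against 137 and 86 bp in HA-Bcl-xL cells, and the log2 difference without that replicate was -4.23 (limma adjusted p = 0.0402). The other domain, near SPRED2, had extents of 2295 and 2325 bp in control replicates 1 and 3, no peak in replicate 2, and 173 and 87 bp in HA-Bcl-xL cells.

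**Figure D5:**
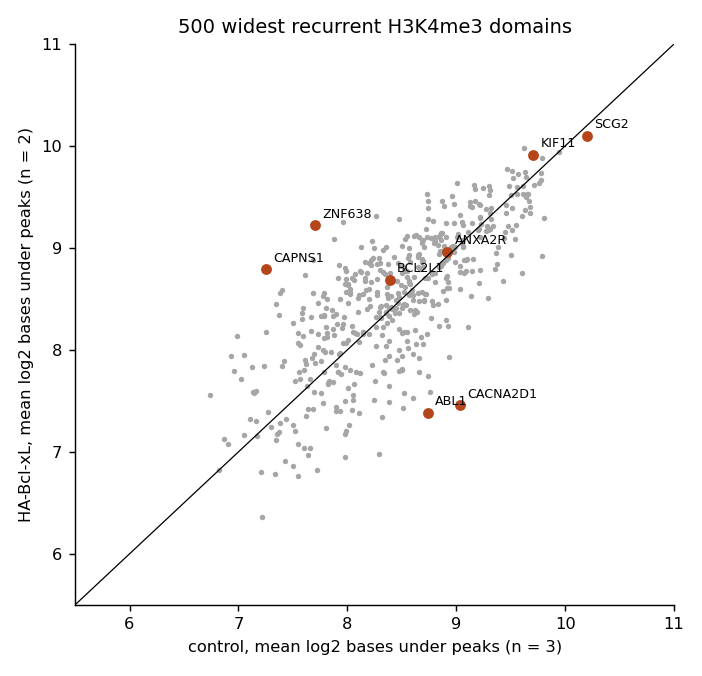
Mean log2 bases under peaks of the 500 members in HA-Bcl-xL (n = 2, vertical) against control libraries (n = 3, horizontal), as deposited and not centred, with the line of equality. Named points are members given in the text; no member passed the adjusted threshold of 0.05.

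Which domains count as the widest depends on how peaks are joined, on the q threshold and on the length of the lists. Of the 500 members, 32.2% overlapped the 500 widest when peaks were merged within 500 bp, 51.8% when merged within 2 kb, 54.8% when peaks needed a −log10 q of at least 5, and 60.8% when the lists were made equally long. Leaving out single libraries kept 81 to 90.8%.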

How the data were processed

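The deposited files used were 11 peak lists, each of 1 library, in narrowPeak layout without a header, and replicates were not pooled. The submitters' processing notes name hg19, bcl2fastq 2.20, Trimmomatic 0.36, Bowtie2 2.2.9, MACS2 2.1.1 and deepTools 3.5.1, with no role or order. Caller settings, duplicate treatment and the use of a control are not given in the sources used here. For each peak the authors deposited a score (the whole part of 10 times the −log10 q), a fold enrichment ratio, a −log10 p and a −log10 q. These are the authors' values and were used only to rank or filter peaks within a list. All deposited peaks had a q-value of at most 0.00997.

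Peaks on chromosomes 1 to 22 and X of these lists were used. H3K4me3 peaks of 5 lists were pooled and merged within 1 kb. Bases under peaks and first-to-last-peak extents were taken per library. Genes came from GENCODE release 44 lifted to GRCh37. No peak ended beyond the reference chromosomes. Coordinates are 1-based. Lines were compared by limma 3.58.1 (R 4.3.3) fitted to log2 bases and extents, median-centred, without a replicate block, and with exact permutation tests (scipy 1.17.1, Python 3.11.15). Domain building and limma were tested on simulated data. The lists give no counts or totals, so no counting intervals are given.

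The genes named were those of the 20 widest members, list members in order of span, members with the smallest limma p, those next to the 500th place, the widest without a start, and the extremes of start number, GC content and evenness. SCG2, SEMA3A, HNRNPA0 and others ranked by coverage or pattern were chosen after their values were seen. The members and lists were chosen with earlier results of these data known. Canonical starts, GC classes and the left-out library check were added after seeing the data. Alternatives were other merging distances, a stricter q, equal list lengths, IgG ignored, other centring, the block, other gene starts and leaving out each library. Some genes of the lists are not reported here.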

Additional observations from a re-analysis of the deposited data

How the results depend on the processing

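No line difference passed its threshold for bases under peaks under any alternative tried (0 domains in each). For extent, called members numbered 0 to 2 when 1 library was left out, with 2 only without control replicate 2. The log2 difference in covered length turned to 0.000358 with merging within 500 bp and ranged from -0.0841 to 0.0343 with 1 library left out. The difference in covered share of span turned to 0.774 with merging within 500 bp, 0.0735 within 2 kb and 0.228 once a −log10 q of at least 5 was required, and ranged from -3.44 to 4.79 with 1 library left out. At CAPNS1 merging within 500 bp gave -0.172. The cause of these turns was not tested. The difference in peaks per member stayed positive, from 0.041 to 0.631.

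Only replicate numbers 2 and 3 are shared by the lines, and the differences between those replicates correlated at 0.0317 across domains, so the numbers were not treated as pairs. With the number as a replicate block, limma called 0 domains, members at an unadjusted p under 0.05 turned to 19 higher and 11 lower (bases) and 25 and 15 (extent), and the differences in covered length and covered share turned to 0.0322 and 4.01.

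The share of members with a protein-coding start moved to 71.2% counting only starts inside the domain, 95.4% by any transcript, 89.4% by the canonical transcript (chosen after seeing the data) and 78.4% with merging within 500 bp. The single-gene share reaching farther downstream moved to 72.0% by the transcript nearest the strongest summit and 92.0% at the stricter q. The span of the 500th domain ranged from 1248 to 1917 bp.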
